A study of Ovis aries with 8 samples.

Results

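The genes described here are 41 genes of the cell division cycle, 31 that act in mitosis and 10 that copy DNA, read in the perirenal fat of Callipyge and normal lambs. A gene was taken as measured where the array's platform annotation gave its symbol, and no other, to a probe set, the group of short probes that reports 1 transcript. By that rule 33 of the 41 genes were measured on 45 probe sets, 24 of the 31 mitosis genes and 9 of the 10 replication genes, out of 9155 named genes and 24016 probe sets in all. Each gene was read on its probe set with the highest mean over the 8 arrays, and the dimmer probe sets were kept as a second reading. TTK, CENPE, KIF11, PRC1, RACGAP1, TOP2A, MKI67 and MCM2 were not matched to a probe set by this rule.

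The lambs were males of 12 weeks from a flock of mixed Dorset, Suffolk and Rambouillet descent. In the 4 NmatCpat lambs the Callipyge allele came from the sire and the normal allele from the dam, and in the 4 NmatNpat lambs, labelled wildtype, both alleles were normal, so that both genotypes carried a normal maternal allele. Kidney fat of each lamb was hybridised to 1 Affymetrix Bovine Genome array, so sheep RNA met probes designed on cattle sequence, and a dim reading can reflect the match of the probes as well as the amount of transcript. The comparison asks whether the paternal Callipyge allele, known for muscle overgrowth and leanness, goes with other transcript levels in a fat depot.

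In a dividing cell, the MCM helicase opens the DNA at origins, the sliding clamp PCNA holds the polymerases on the template, and ribonucleotide reductase and thymidylate synthase supply the nucleotides. Transcripts of these genes rise under E2F factors as the cell enters S phase. The mitosis genes rise later, in G2 and M, when cyclin B with CDK1 starts mitosis, the Aurora and Polo kinases build the spindle, the checkpoint holds the chromosomes until all are attached, and ubiquitin ligases end the phase by destroying cyclins and securin. Mature fat cells do not divide. The cells that do divide in adipose tissue are a minority of progenitor, endothelial and blood cells. Which cells gave the transcripts read here was not measured. In bulk tissue, fewer dividing cells and less RNA per cell cannot be told apart.

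Readings are log2 intensities after quantile normalisation between arrays, so that a difference of 1 is a doubling. The arrays were alike in brightness, with median intensities of 65.3 to 72.6 and mean correlations with the other arrays of 0.897 to 0.914. Of the fat cell markers 9 of 10 were measured, FABP4 and ADIPOQ read above the array median in every lamb, and the summed intensity was 50635 to 56489 in the NmatCpat lambs against 51818 to 53777 in the NmatNpat lambs. Markers of another tissue were raised on 2 arrays. In NmatNpat animal 1 the 8 measured neuron markers of 9 summed to 21682, against 2111 to 2992 in the other 7 lambs. For the 8 measured muscle markers of 9 the sums overlapped, with 3720 to 5845 in NmatCpat fat against 4573 to 6726. In NmatCpat animal 4 they lay 1.41 log2 units above their own means on average, against at most 0.04 elsewhere, with MYL2 and TNNT1 highest there and the bright marker CKM lowest there.

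Most of the single differences were smaller than the spread between lambs, and more of the listed mitosis genes lay below 0 than above it. Of the 24 measured mitosis genes 17 had a lower mean in the NmatCpat lambs (70.8%), and the median of the 24 log2 differences was -0.22, against 49.3% and a median of 0.0046 over all 9155 named genes. Of the 9 replication genes 4 were lower and 5 higher, with a median of 0.01. The 31 measured mitosis genes outside the list had 12 lower and 19 higher, and the 4 listed mitosis genes with readings above the array median had 2 lower and 2 higher. The thresholds of the study, an unadjusted P of at most 0.05 and a fold over 1.5, were applied here to limma. The study tested with another package, so its calls can differ from these. Of all named genes 1.52% passed as lower and 1.39% as higher. Of the 33 genes 2 were lower, SPAG5 and CDCA2, and 0 were higher. Both genes were chosen with results of these lambs known, so their count is not independent evidence of a direction. Without them 15 of 22 mitosis genes were lower, with a median of -0.19. The mitosis median also moved with single lambs, to -0.08 without NmatCpat animal 2, -0.10 without NmatCpat animal 3, -0.13 without NmatNpat animal 4 and -0.34 without NmatCpat animal 1. The counts and medians of these lists are descriptions and were not tested. After Benjamini-Hochberg adjustment over all probe sets, 0 members passed in limma, with 2 at an unadjusted P of at most 0.05, and the smallest adjusted p of a member was 0.983. A linear model without moderated variances also gave 0 after adjustment and 2 before it.

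**Figure D1:**
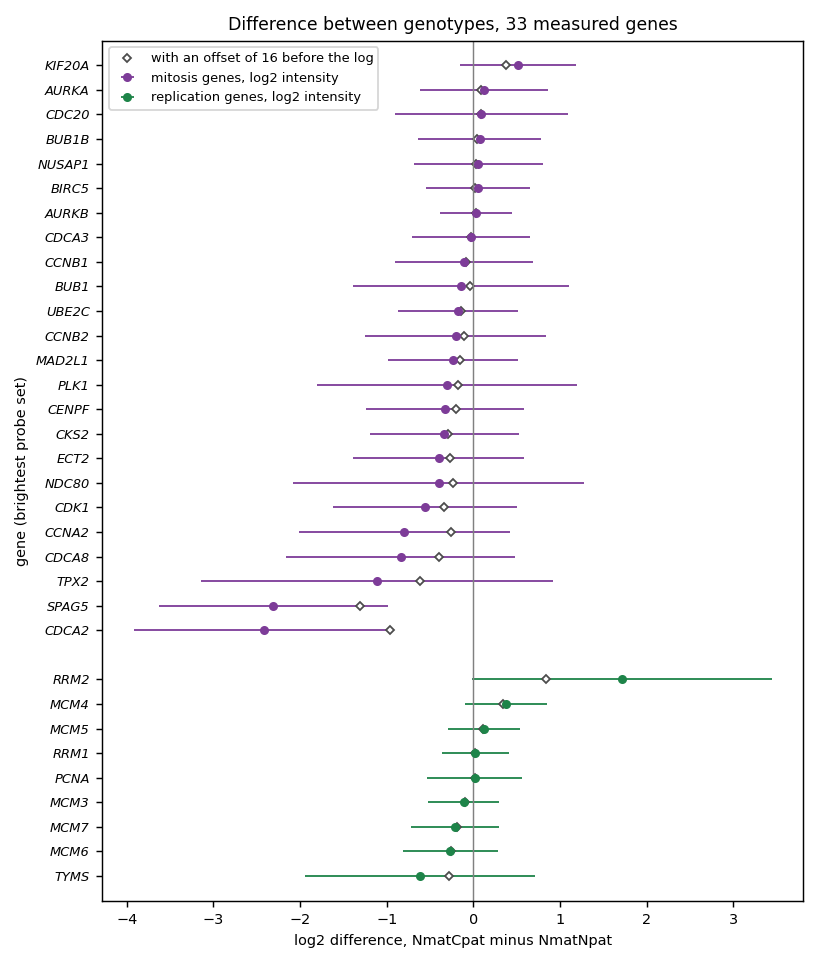
Log2 difference between genotypes (x axis, NmatCpat minus NmatNpat, 4 lambs each) for the 33 measured genes on their brightest probe sets, ordered within the mitosis genes (purple) and the replication genes (green). Filled points and bars are limma estimates with 95% intervals and open diamonds are the estimates when 16 is added to each intensity first. The intervals of SPAG5 and CDCA2 lie wholly below 0, and the interval of RRM2 reaches from -0.01 to 3.44.

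Differences were scattered more widely among dim probe sets than among bright ones. Of the replication genes 7 of 9 had a mean above the array median of 5.99, but only 4 of 24 mitosis genes did: CKS2, AURKB, CDC20 and UBE2C. The median standard deviation within a genotype was 0.63 for the mitosis genes, 0.28 for the replication genes and 0.35 for all named genes. The 11 members above the array median differed by -0.34 to 0.38 between genotypes, with a median of 0.01. The 22 members below it ran from -2.41 to 1.71, with a median of -0.27, and 16 of them were lower in NmatCpat fat. A 2-fold change in either direction lay outside the 95% interval for 7 of 9 replication genes and for 9 of 24 mitosis genes. Adding an offset of 16 to each intensity before the log, which damps dim readings, drew the mitosis median to -0.15 and left the replication median at 0.01.

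**Figure D2:**
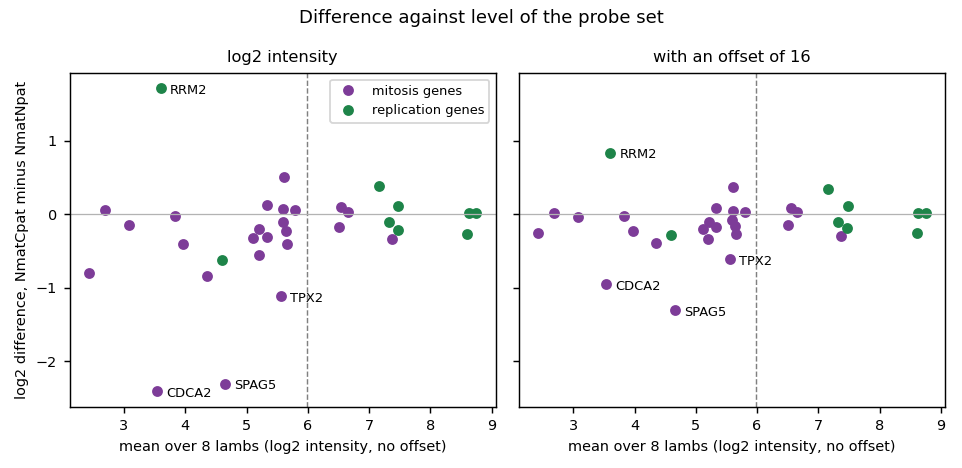
Log2 difference between genotypes (y axis) against the mean log2 reading over the 8 arrays (x axis) for each measured gene, on the plain log2 scale (left) and with an offset of 16 (right). The reading is that of each gene's own probe set and serves as a measure of dimness, not as a comparison of transcript levels between genes. In the left panel the members above the array median of 5.99 (dashed line) lie between -0.34 and 0.38, and all larger differences belong to dimmer probe sets.

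The cyclins and CDK1, which drive the cell into and through mitosis, were lower in NmatCpat fat in 5 of 5 genes, with a median difference of -0.34 and a range of -0.80 to -0.11, and none passed the P and fold thresholds. CCNA2, the cyclin of S phase and early mitosis, read 2.02, 2.07, 2.57 and 1.48 in NmatCpat animals 1 to 4 and 1.72, 2.10, 3.86 and 3.64 in NmatNpat animals 1 to 4. Its difference of -0.80 rested on the high readings of NmatNpat animals 3 and 4, and the other lambs overlapped (exact permutation test, two-sided p = 0.257). All its readings lay far below the array median. CKS2, a small subunit that docks CDK1 to its substrates, was the brightest of the group, with 7.45, 6.33, 6.90 and 8.12 in NmatCpat lambs against 7.69, 7.23, 7.51 and 7.70. Here NmatCpat lambs held both the lowest and the highest reading, and the difference of -0.34 (SE 0.37) was within their spread. CDK1, the kinase itself, differed by -0.56. For its B-type cyclins the differences were -0.11 in CCNB1 and -0.21 in CCNB2, with all lambs overlapping.

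Among the mitotic kinases and the chromosomal passenger complex, 3 of 5 genes were higher and 2 lower, with a median of 0.03. AURKB, the kinase of the passenger complex that corrects faulty attachments of chromosomes, gave the tightest readings of the mitosis genes. They were 7.0, 6.40, 6.62 and 6.63 in NmatCpat lambs and 6.67, 6.58, 6.78 and 6.50 in NmatNpat lambs. The difference of 0.03 had a 95% interval of -0.39 to 0.44, so a 2-fold change either way lay outside it. A dimmer AURKB probe set scattered from 0.15 to 4.87 in the NmatCpat lambs and differed by 0.55 (95% interval -2.05 to 3.15). CDCA8, the passenger subunit borealin, read 3.62, 4.70, 2.39 and 5.02 against 5.29, 4.99, 4.48 and 4.31, with NmatCpat animals 1 and 3 below all others. Its difference was -0.84 (95% interval -2.16 to 0.48), and its dimmer probe set gave -1.23, also with an interval that held 0. Without NmatCpat animal 3 the difference was -0.32. BIRC5, the passenger subunit survivin, differed by 0.06. The centrosome kinase AURKA differed by 0.12 and PLK1, the Polo kinase of mitotic entry and spindle assembly, by -0.31.

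Of the spindle checkpoint and kinetochore genes 5 of 7 were measured and 4 of the 5 were lower, with a median of -0.23. CENPF, a protein of the outer kinetochore, read 5.98, 4.40, 4.85 and 4.57 in NmatCpat lambs against 4.75, 5.58, 5.75 and 5.02. Its highest reading belonged to NmatCpat animal 1, and the difference of -0.33 was within the spread of the lambs. The checkpoint protein MAD2L1 differed by -0.23 and NDC80, which ties kinetochores to microtubules, by -0.40. BUB1B, which inhibits the anaphase ligase while the checkpoint is on, differed by 0.07.

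BUB1, the checkpoint kinase, was read on 2 dim probe sets that went opposite ways. The brighter gave 2.89, 4.18, 1.98 and 2.99 in the NmatCpat lambs against 2.71, 3.02, 4.30 and 2.57 in the NmatNpat lambs, a difference of -0.14. The dimmer gave 2.75, 2.61, 4.75 and 4.76 against 2.19, 2.62, 2.55 and 1.56. On it NmatCpat animals 3 and 4 stood well above the rest, while animals 1 and 2 lay beside the NmatNpat lambs. The difference of 1.49 (95% interval 0.15 to 2.83) passed the unadjusted P and fold thresholds, the only dimmer probe set of a member to do so. With the offset of 16 the difference was 0.57, and it no longer passed the fold threshold. Over all probe sets 2.04% passed as higher and 1.88% as lower, and the limma adjusted p of this probe set was 0.983.

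The largest difference of a spindle gene was that of SPAG5, which encodes astrin, a spindle protein that helps to keep sister chromatids together until anaphase. It read 3.52, 5.13, 3.20 and 2.15 in NmatCpat lambs and 5.88, 5.41, 6.17 and 5.78 in NmatNpat lambs. All NmatNpat lambs lay above all NmatCpat lambs, with NmatCpat animal 2 closest to them. The log2 difference was -2.31 (SE 0.57, 95% interval -3.63 to -0.99), with a limma adjusted p of 0.983. The exact permutation test gave p = 0.0286, the smallest that 4 against 4 lambs allow. Any gene without overlap gives this value, and SPAG5 was chosen with results of these lambs known. The second SPAG5 probe set, of nearly the same mean brightness, did not separate the genotypes: it read 4.74, 3.03, 3.0 and 5.67 against 4.92, 3.24, 5.25 and 5.58, a difference of -0.64 (95% interval -2.36 to 1.09).

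Only the first of these SPAG5 probe sets is of the array's kind that may bind several transcripts of a gene. With the offset of 16 its difference was -1.31, with the lambs still apart. TPX2, which activates Aurora A and nucleates spindle microtubules, had a mean difference of -1.12 with a wide 95% interval of -3.15 to 0.92. NmatCpat animals 1 and 2 read 2.77 and 3.91 while animals 3 and 4 read 6.82 and 6.52, and the NmatNpat lambs lay close together at 5.91 to 6.35. NUSAP1, which bundles spindle microtubules, differed by 0.06.

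CDCA2, also called Repo-Man, brings a phosphatase to the chromosomes as mitosis ends, and it was the lowest of the members relative to NmatNpat lambs. It read 1.16, 3.06, 1.25 and 3.87 in the NmatCpat lambs against 5.23, 4.88, 4.92 and 3.96 in the NmatNpat lambs. The genotypes did not overlap, although NmatCpat animal 4 and NmatNpat animal 4 were almost level. The log2 difference of -2.41 (SE 0.65, 95% interval -3.91 to -0.91) had a limma adjusted p of 0.983. The exact permutation p of 0.0286 only restates the lack of overlap, and CDCA2 too was chosen with results of these lambs known. With the offset the difference was -0.96, and the gene had 1 probe set, so no second reading stands beside it. Of the 33 members 2 had genotypes that did not overlap, both lower in NmatCpat fat, against 1.46% of all named genes that were lower without overlap and 1.38% that were higher.

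**Figure D3:**
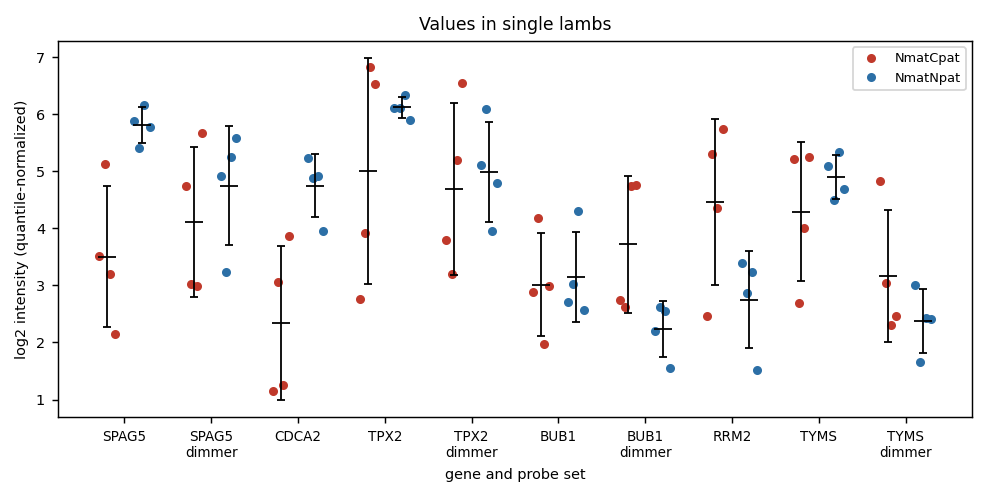
Log2 intensity of single lambs (y axis) in NmatCpat and NmatNpat fat for selected genes, 1 point per lamb, with bars for the mean and the standard deviation of 4 lambs. The genotypes lie apart in SPAG5 and CDCA2, and overlap on the other probe sets shown, including the dimmer one of SPAG5.

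The genes of protein destruction ended near 0, with a median of -0.03. CDC20, which turns on the anaphase ligase, read 5.50, 6.98, 7.09 and 6.81 in NmatCpat lambs against 7.17, 6.60, 5.75 and 6.49, a difference of 0.09. UBE2C, the ubiquitin-conjugating enzyme of that ligase, read 6.62, 5.80, 6.35 and 6.93 against 6.85, 6.84, 6.03 and 6.68, a difference of -0.18. In both genes the order of the lambs crossed the genotypes. CDCA3, a trigger of mitotic entry, differed by -0.03.

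In cytokinesis, 2 of 4 genes were measured and they differed in opposite directions. KIF20A, the kinesin that carries passenger proteins to the midzone, was the highest mitosis gene in NmatCpat fat relative to NmatNpat, with 6.0, 5.78, 5.65 and 6.05 against 5.75, 5.56, 5.58 and 4.54. The lambs overlapped, and NmatNpat animal 4 lay far below the others. The difference was 0.51 (95% interval -0.15 to 1.18), and the exact permutation test gave p = 0.0571. Without NmatNpat animal 4 the difference was 0.24. ECT2, which starts the contractile ring, differed by -0.40 on its brighter and by 0.73 on its dimmer probe set, neither past the thresholds.

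The replication genes gave tighter values. MCM4, a subunit of the helicase, read 7.49, 7.18, 6.95 and 7.75 in the NmatCpat lambs against 7.05, 6.98, 6.93 and 6.91 in the NmatNpat lambs. The difference was 0.38 (95% interval -0.09 to 0.85), with NmatCpat animal 3 inside the range of the NmatNpat lambs. MCM6, another subunit, went the other way, with 8.96, 8.23, 8.24 and 8.44 against 8.60, 8.79, 8.43 and 9.12. Its difference was -0.27, its dimmer probe set gave -0.25, and the lambs overlapped on both. The other subunits differed by -0.11 in MCM3, 0.12 in MCM5 and -0.21 in MCM7. Over the 5 measured subunits, which work as 1 ring in the cell, 2 were higher and 3 lower, with a median of -0.11.

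PCNA, the sliding clamp, was level between genotypes. It read 9.19, 8.30, 8.49 and 9.04 in the NmatCpat lambs against 8.63, 8.78, 8.67 and 8.90 in the NmatNpat lambs, a difference of 0.01 with a 95% interval of -0.53 to 0.56. RRM1, the large subunit of ribonucleotide reductase, read 8.68, 8.82, 8.38 and 8.65 against 8.41, 8.67, 8.63 and 8.75, a difference of 0.02 with an interval of -0.37 to 0.41. A 2-fold change lay outside both intervals.

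RRM2, the small subunit of the same enzyme and the one whose amount follows S phase, had the largest positive difference of all members. It read 2.46, 5.30, 4.35 and 5.74 in the NmatCpat lambs against 3.39, 2.87, 3.23 and 1.52 in the NmatNpat lambs. NmatCpat animals 2, 3 and 4 lay above all NmatNpat lambs, and animal 1 lay among them. The difference was 1.71 (SE 0.75, 95% interval -0.01 to 3.44), with an exact permutation p of 0.114, and it did not pass the thresholds. With the offset of 16 it was 0.84 and passed both, so that 1 member was then called higher and 2 lower, where 1.17% and 1.19% of all named genes were. RRM2 has 1 probe set and, unlike RRM1, a dim one. TYMS, thymidylate synthase, gave -0.62 on its brighter and 0.79 on its dimmer probe set, with the lambs overlapping on both. Of the 12 members with 2 probe sets 9 had the same sign on both and 3 had opposite signs, BUB1, TYMS and ECT2.

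To set both sets of genes side by side in each lamb, every gene was expressed as its deviation from its own mean over the 8 arrays and averaged. The mitosis genes averaged -0.15, -0.30, -0.41 and 0.05 in NmatCpat animals 1 to 4 and 0.14, 0.04, 0.44 and 0.20 in NmatNpat animals 1 to 4. The genotype means were -0.20 ± 0.20 and 0.20 ± 0.17 (SD, n = 4 each), and NmatCpat animal 4 reached just into the range of the NmatNpat lambs. The replication genes averaged 0.03, -0.05, -0.18 and 0.42 against -0.05, -0.04, -0.01 and -0.14. The NmatCpat lambs were thus scattered on both sides of the NmatNpat lambs, which lay close together.

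Replication minus mitosis was 0.19, 0.25, 0.24 and 0.37 in NmatCpat lambs and -0.19, -0.07, -0.44 and -0.34 in NmatNpat lambs. On this scale all 4 NmatCpat lambs were positive and all 4 NmatNpat lambs negative, a difference of 0.52. No p is given, because the genes were chosen with results of these lambs known. A large part of the difference came from 3 dim genes. It was 0.34 without SPAG5 and CDCA2 and 0.32 without RRM2, with the lambs still apart by a narrow margin both times. Without all 3 genes it was 0.14 and the lambs overlapped. These genes had the most extreme differences of their lists, so leaving them out had to shrink the difference. With the offset of 16 the difference was 0.26 and the lambs overlapped. The mitosis genes above the array median differed by -0.10 with overlap and those below it by -0.47 without. Those below it include SPAG5 and CDCA2 and were not read without them, so this lack of overlap is no separate evidence. Over all mitosis genes without SPAG5 and CDCA2 the difference was -0.23 and the lambs overlapped.

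**Figure D4:**
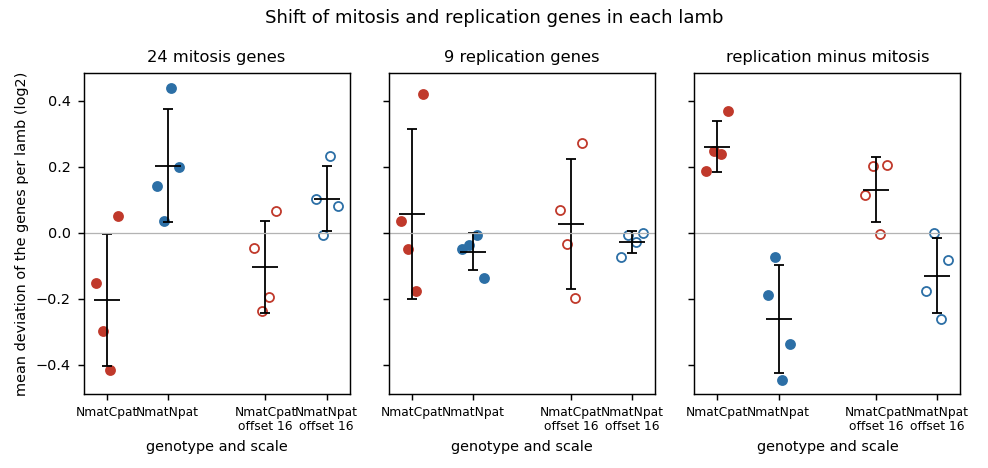
Mean deviation of the mitosis genes, of the replication genes, and replication minus mitosis (log2 units, y axis) in each of the 4 NmatCpat and 4 NmatNpat lambs. Filled points are log2 intensities, open points are values with an offset of 16, and bars are the mean and standard deviation of 4 lambs. Replication minus mitosis lies above 0 in NmatCpat and below 0 in NmatNpat lambs on the plain log2 scale, and the genotypes overlap with the offset.

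Counting genes rather than averaging them gave a less even picture. The number of the 24 mitosis genes above their own mean was 14, 10, 7 and 15 in the NmatCpat lambs against 17, 10, 18 and 14 in the NmatNpat lambs. NmatCpat animal 3 was lowest and NmatNpat animal 3 highest, while NmatCpat animal 4 and NmatNpat animal 4 differed by 1 gene. For the 9 replication genes the counts were 6, 5, 1 and 7 against 2, 6, 4 and 5. NmatCpat animals 3 and 4 thus stood at opposite ends of the replication counts.

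**Figure D5:**
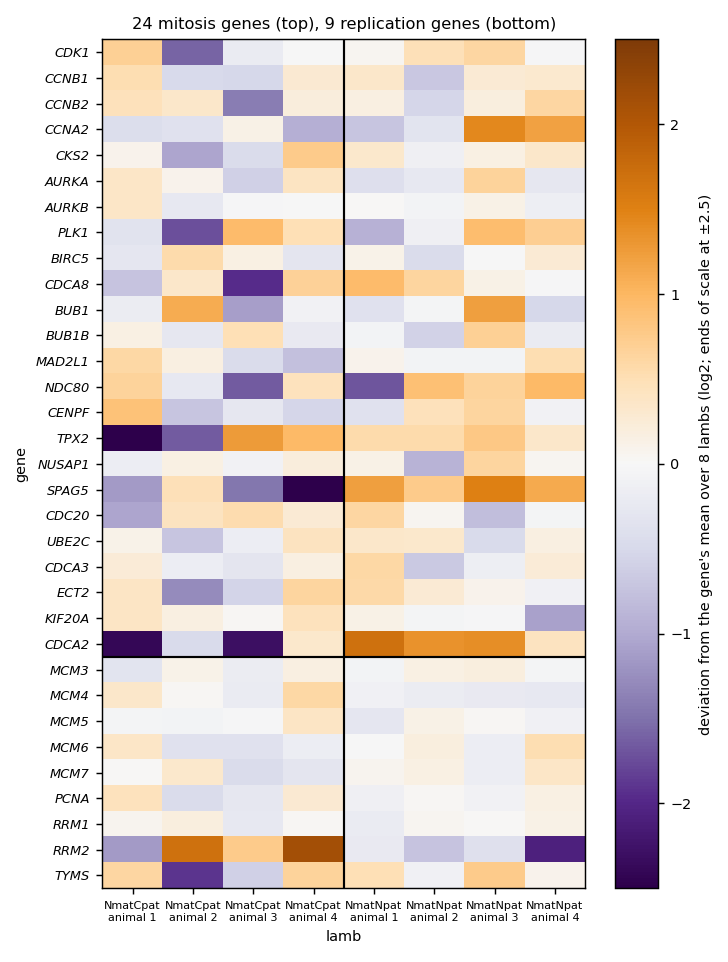
Deviation of each measured gene from its mean over the 8 arrays (colour, log2 units), with genes in rows by role and lambs in columns. The deviations are largest in SPAG5, CDCA2, TPX2 and RRM2, and most of the MCM genes, PCNA and RRM1 stay pale in all lambs.

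Other genes of the cell cycle were read from a list that leaves out the 41 genes, 85 of 122 of them measured. In this list 48 genes were higher and 37 lower in NmatCpat fat, with a median of 0.03, and 1 passed the P and fold thresholds as higher and 2 as lower, near the 1.39% and 1.52% of all named genes. The 31 measured other mitosis genes of 50 had 19 higher and 12 lower, with a median of 0.06 and none past the thresholds. The 36 measured other replication genes of 42 had 18 higher and 18 lower. Replication minus mitosis over these other genes differed by -0.26 between the genotypes, with overlapping lambs, the opposite sign to that over the members. Among regulators of S phase entry, the G1 cyclins and their kinases had 5 of 7 higher, the E2F and pocket protein genes 5 of 7, and the inhibitors of CDKs 1 of 4.

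The 3 of these other genes past the unadjusted thresholds had different roles. CCNE2, a cyclin of S phase entry, read 6.47, 5.78, 5.88 and 6.67 in the NmatCpat lambs against 6.85, 8.24, 6.69 and 7.33 in the NmatNpat lambs, apart by a narrow margin, with a difference of -1.08 (SE 0.38). POLA2, a subunit of the polymerase that primes DNA synthesis, read 3.29, 2.37, 4.57 and 3.23 against 4.91, 4.85, 4.52 and 4.91, a difference of -1.43. MYBL2, a transcription factor of late cycle genes, read 7.75, 7.97, 7.37 and 7.65 against 7.49, 6.31, 7.0 and 7.29, a difference of 0.66. POLA2 and MYBL2 each had overlapping lambs. The limma adjusted p was 0.983 for all 3 genes.

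Markers of cells that can divide in fat were set beside these values. The 10 measured lymphocyte markers of 12 summed to 513 to 616 in the NmatCpat lambs against 474 to 1051 in the NmatNpat lambs, with the highest sum in NmatNpat animal 1. On the log2 scale 9 of these 10 were lower in NmatCpat fat, and none passed the P and fold thresholds. Their median difference was -0.23, where the mitosis median was -0.22. It was -0.05 for the macrophage, 0.06 for the fibroblast and progenitor and 0.12 for the endothelial markers. The lymphocyte markers deviated from their own means by -0.05, -0.15, -0.37 and 0.04 in NmatCpat animals 1 to 4. In NmatNpat animals 1 to 4 they deviated by 0.79, -0.01, -0.10 and -0.15, while the mitosis genes were highest in NmatNpat animal 3. For the 7 fibroblast and progenitor markers of 7 the sums were 32493 to 52184 and 34517 to 52077, and for the 7 endothelial markers of 7 they were 5509 to 6758 and 5203 to 6201. The 5 measured red cell precursor markers of 10 summed to 203 to 323 and 165 to 260. On the log2 scale 2 of these 5 were lower in NmatCpat fat, HBA at -0.34 and ALAS2 at -0.09. HBB at 0.32 and EPOR at 0.31 were higher, and the median of the 5 was 0.31. Only AHSP, which stabilises alpha globin, passed the P and fold thresholds. It was higher in NmatCpat fat without overlap, with 5.56, 6.70, 6.08 and 5.63 against 1.91, 4.89, 3.44 and 4.84. The AHSP difference was 2.22 (SE 0.67), and its limma adjusted p was 0.983. The 8 measured macrophage markers of 9 summed to 1926 to 4936 in the NmatCpat lambs against 2057 to 4846 in the NmatNpat lambs. The sums of every list overlapped between genotypes, no marker was listed at 0, and the part of these cells in the mitosis readings was not tested. Without NmatNpat animal 1 and NmatCpat animal 4, the arrays with raised neuron and muscle markers, the median difference of the mitosis genes was -0.28, replication minus mitosis differed by 0.51, and SPAG5 and CDCA2 passed the thresholds as before.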

How the data were processed

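Perirenal fat of 8 lambs was read on 1 array each, 4 lambs per genotype, grouped by the genotype in the labels. The deposited values were linear intensities that the authors made with MAS5 from the scanned arrays (version not given in the sources used here). The methods also name a quantile normalisation, which the deposited intensities did not show, since their medians differed between arrays. Here log2 intensities were quantile-normalised over 24128 probe sets. The 112 control probe sets were then removed. Genotypes were compared with limma 3.58.1 in R 4.3.3 (lmFit, eBayes, Benjamini-Hochberg over 24016 probe sets), called at P of at most 0.05 and a fold over 1.5, and with a two-sided exact permutation test over 70 arrangements. Of the probe sets 13292 had 1 gene symbol, 86 several and 10638 none. The platform symbols can be old.

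The members, their split into mitosis and replication genes, and all lists were chosen with earlier results of these data known. Genes given with every lamb's value were the members past both thresholds with or without the offset, those with the smallest p in each list and role, and the brightest of each list. Other cell cycle genes past both thresholds were added. CDK1, TPX2 and other genes outside this rule are given by their differences or by readings picked after they were seen. Lambs are separate animals, and 8 arrays limit the precision. The fit was checked on simulated data. Alternatives were an offset of 16, median centring, probe sets above the array median, probe sets of single transcripts, other variance models, the mean of all probe sets, a block for animal number, leaving out each lamb, and lists without SPAG5 and CDCA2. Leaving out RRM2 was chosen after seeing the data. No sequences were used.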

Additional observations from a re-analysis of the deposited data

Results flagged for a closer look

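KIF20A, the midzone kinesin, read 4.54 in NmatNpat animal 4, while the other NmatNpat lambs read 5.56 to 5.75. The gap was 0.85 of the range of the 4 lambs. Of 38 groups of 4 values examined this was the only one whose extreme lamb lay so far off. Chance alone gives about 1 in 20 groups, so 1 among 38 is no more than chance would give. The 38 groups did not cover all 33 measured members, so this count does not speak for the rest. Outside them, more groups had a lamb as far off. CCNB1 read 4.91 in NmatNpat animal 2 against 5.86 to 5.93 in the other NmatNpat lambs. NDC80 read 2.28 in NmatNpat animal 1 against 4.62 to 4.93, and AURKA 5.99 in NmatNpat animal 3 against 4.94 to 5.09. Among NmatCpat lambs, MCM5 read 7.85 in animal 4 against 7.41 to 7.46, and CCNB2 read 3.81 in animal 3 against 5.41 to 5.67. Without NmatNpat animal 4 the KIF20A difference was 0.24, against 0.51 with it. The cause was not tested.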

How the results depend on the processing

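Under 20 alternatives 0 members passed the adjusted threshold, the mitosis median stayed between -0.34 and -0.07, and the replication median lay between -0.12 and 0.10. A single member, RRM2, was called higher with the offset of 16, with median-centred arrays and with trended robust variances, and 0 to 1 when each lamb was left out, where the 1 came without NmatCpat animal 1 (RRM2, 2.38). The count of lower members was 0 among probe sets above the median level and 0 without SPAG5 and CDCA2 (also with RRM2 left out too). It was 1 when probe sets able to bind several transcripts were dropped, where SPAG5 gave -0.64, and 2 to 3 with each lamb left out, the 3 without NmatNpat animal 1. Replication minus mitosis differed by 0.26 with the offset, 0.088 above the median level, 0.34 without SPAG5 and CDCA2, 0.32 without RRM2 and 0.14 without all 3 genes. The causes were not tested beyond the genes left out. Small differences changed sign: with the neuron and muscle arrays both left out PCNA gave -0.12 and RRM1 -0.054. With each lamb left out AURKB ran from -0.084 to 0.12, CDC20 from -0.16 to 0.46, UBE2C from -0.37 to 0.033, PCNA from -0.13 to 0.17 and RRM1 from -0.048 to 0.10. Dim signal limited what could be read of 20 of the 24 mitosis genes.

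With animal number as a replicate block the counts were 0 higher and 2 lower, and the block changed no call. Same-numbered lambs had deviations that correlated only at -0.01 to 0.05, so the numbers were not treated as pairs. As a hint from the data and not the design, 5 of 8 lambs correlated best with their own number, and the summed macrophage markers grouped by number.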

Other observations

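Macrophage markers, taken as a sum, followed the animal number and not the genotype. Their summed intensity was 1926 to 2368 in animals 1 and 2 of both genotypes and 4042 to 4936 in animals 3 and 4 of both. C1QB did not follow it: its intensity was 124 in NmatCpat animal 2 and 177 in NmatNpat animal 2, against 143 to 210 in animals 3 and 4. This grouping was noticed after the values had been seen and was not tested.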
